A study of Mus musculus with 12 samples.

Results

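miR-10a-5p (MIMAT0000648) and miR-10b-5p (MIMAT0000208) are the 5′ arm products of the murine miR-10 hairpins. Both were taken from the mouse tables by accession, and they make up 2 of the 874 mature miRNAs listed there. Small RNA had been sequenced from serum of 3 female athymic NCr nude mice (1046, 1047 and 1069, aged 4 to 6 weeks), drawn before and 2 weeks after implantation of 1000000 human SH-SY5Y cells under the renal capsule. The implanted line is an established one from neuroblastoma, a childhood tumour of the sympathetic nervous system, and athymic nude mice lack a functional thymus and most T cells. RNA of each of the 6 sera was divided into 2 aliquots, of which 1 was depleted of 5′ tRNA fragments with biotinylated DNA probes and streptavidin beads. This gave 4 groups of 3 libraries: before injection depleted, before injection undepleted, after injection depleted and after injection undepleted. Every mouse received tumour cells, so that tumour and elapsed time cannot be told apart in the comparison of the time points.

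The miR-10 miRNAs are encoded inside the Hox gene clusters, the arrays of transcription factor genes that lay out the body axis, and several Hox transcripts are among their known targets. A miRNA guides its silencing complex to a messenger RNA mainly through the seed, the short stretch near its 5′ end, so that miRNAs with one seed share many targets. miR-10b is known for its association with invasion and metastasis in several tumour types, and both miRNAs are known to rise when neuroblastoma cells differentiate under retinoic acid.

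The mature sequences are shown first, because miR-10a-5p and miR-10b-5p can be counted separately only through the base in which they differ. All sequences are from RefSeq on GRCm38.p6, are written 5′ to 3′, and have the seed (bases 2 to 8) in capitals.
mmu-miR-10a-5p: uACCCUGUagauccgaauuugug
mmu-miR-10b-5p: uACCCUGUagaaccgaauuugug
mmu-miR-99a-5p: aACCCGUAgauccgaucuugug
mmu-miR-99b-5p: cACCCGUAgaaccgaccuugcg
mmu-miR-100-5p: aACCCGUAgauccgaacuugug

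miR-10a-5p and miR-10b-5p were identical at 22 of 23 bases and differed by U12A, counted from 1 at the 5′ end with the base of miR-10a-5p first. The difference lies outside the seed, and ACCCUGU was the seed of these 2 names alone among the mature mouse miRNAs of the RefSeq table. Each of the 2 sequences was found at 1 locus. The related miR-99a-5p, miR-99b-5p and miR-100-5p shared the seed ACCCGUA, which differs from that of miR-10.

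The hairpins are shown with both mature arms in capitals, since each arm has its own counts. Mir10a lies at chr11:96317165-96317274 on the plus strand and Mir10b at chr2:74726070-74726137 on the plus strand.
Mir10a: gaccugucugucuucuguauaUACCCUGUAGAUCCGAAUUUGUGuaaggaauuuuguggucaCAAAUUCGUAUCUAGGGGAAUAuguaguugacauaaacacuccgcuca
Mir10b: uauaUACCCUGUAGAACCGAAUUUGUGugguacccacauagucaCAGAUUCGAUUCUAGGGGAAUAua

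In the GENCODE annotation of the same build, Mir10a overlapped no other gene and lay between Hoxb5, 11043 bp away, and Hoxb4, 992 bp away. Mir10b lay in introns of 1 transcript of Hoxd3 and 2 transcripts of Hoxd4 and overlapped no exon of either gene. The 3′ arms differed at 3 of 22 bases (A3G, U9A and A10U, with the base of miR-10a-3p first), of which A3G is inside their seed.

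Both 5′ arms had counts in all 12 libraries. miR-10b-5p ranked 3rd to 9th among the mouse miRNAs of a library and miR-10a-5p ranked 9th to 23rd. The pair together took between 5.24% and 9.68% of all mouse miRNA counts. The 3′ arms were nearly absent: miR-10a-3p had 19 counts and miR-10b-3p 61 counts over all 12 libraries, against 215351 for miR-10a-5p and 558242 for miR-10b-5p. No test was drawn from the 3′ arms. The libraries held 938706 to 2271549 mouse miRNA counts with depletion and 21235 to 97183 without. The smallest of all was the undepleted aliquot drawn from mouse 1069 before injection, in which miR-10a-5p rested on 170 counts. Levels are given below as a percentage of all mouse miRNA counts of a library, with 95% Wilson intervals that cover counting error only.

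The human tables held the same numbers. For both 5′ arms and both 3′ arms, human and mouse counts were equal in 12 of 12 libraries (summed difference 0). The counts therefore do not tell miRNAs of the human tumour cells from those of the mouse, and the levels below hold for reads of either origin.

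Before injection, miR-10a-5p took 1.67% of mouse miRNA counts in mouse 1046, 1.57% in mouse 1047 and 0.686% in mouse 1069, all in depleted libraries. After injection it took 2.19%, 2.67% and 2.83% in the same order. Each of the 3 libraries after injection was above each of the 3 before, and mouse 1069 moved from the lowest to the highest of the 6 depleted libraries. The means were 1.31% ± 0.542 before and 2.56% ± 0.331 after (SD, n = 3 each). Within a mouse the level rose by a factor of 1.31 in mouse 1046, 1.71 in mouse 1047 and 4.12 in mouse 1069.

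In the undepleted libraries, miR-10a-5p took 1.82% in mouse 1046, 1.64% in mouse 1047 and 0.801% (95% interval 0.689 to 0.930) in mouse 1069 before injection. After injection it took 2.48%, 2.71% and 2.89%. The time points again did not overlap, and the order of the 3 mice was the same as in the depleted aliquots at both time points. The means were 1.42% ± 0.543 and 2.69% ± 0.209 (SD, n = 3 each), and the factors within a mouse were 1.36, 1.66 and 3.61. Such a separation was common: among the miRNAs with a mean of at least 50 counts, 33.6% of 217 with depletion and 32.4% of 71 without were higher in each library after injection (12.4% and 19.7% were lower in each).

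miR-10b-5p did not share this pattern. In depleted libraries it took 4.84% in mouse 1046, 3.67% in mouse 1047 and 6.96% in mouse 1069 before injection. After injection it took 5.56%, 5.79% and 6.13%. The groups overlapped, because mouse 1069 started above every later library, while the other two mice ended higher than they began. The means were 5.16% ± 1.67 and 5.83% ± 0.283 (SD, n = 3 each), and the factors within a mouse were 1.15, 1.58 and 0.881.

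Without depletion, miR-10b-5p took 5.22%, 4.08% and 8.88% of mouse miRNA counts before injection in mice 1046, 1047 and 1069. After injection it took 6.70%, 6.35% and 6.47%. Mouse 1069 was again the one mouse in which it was lower after injection, with a factor of 0.729 against 1.28 in mouse 1046 and 1.56 in mouse 1047. The means were 6.06% ± 2.51 and 6.51% ± 0.174 (SD, n = 3 each). In both arms the 3 mice lay closer together after injection than before, most so for miR-10b-5p.

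**Figure D1:**
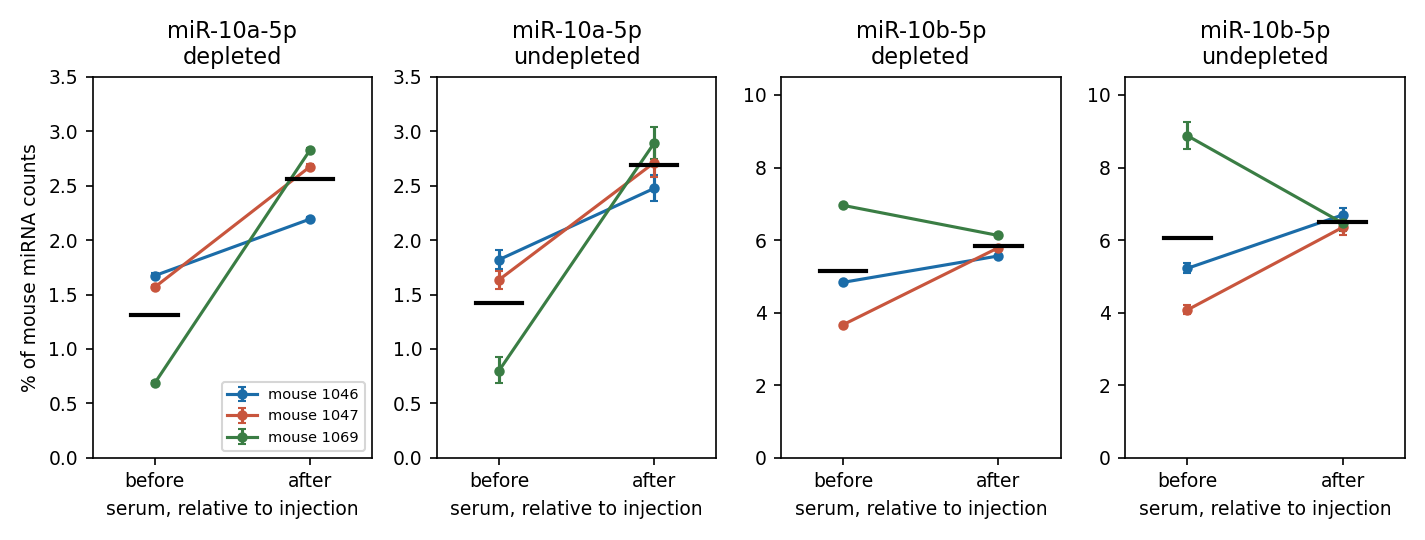
Share of mouse miRNA counts (%, linear axis from 0) of miR-10a-5p and miR-10b-5p in serum before and after injection, in depleted and undepleted libraries. Points are single libraries with 95% Wilson intervals, lines join the libraries of a mouse and black bars are group means of 3 libraries; miR-10a-5p was higher after injection in 3 of 3 mice in both arms, and miR-10b-5p in 2 of 3, with mouse 1069 as the exception.

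Ordered by mean, the groups of miR-10a-5p ran from before injection depleted (1.31%) and undepleted (1.42%) to after injection depleted (2.56%) and undepleted (2.69%). The neighbours within a time point differed by less than their SD, and the step between the time points was larger than either SD. For miR-10b-5p the order was before depleted (5.16%), after depleted (5.83%), before undepleted (6.06%) and after undepleted (6.51%), and no neighbours in it differed by more than the larger of their SDs.

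The change with the time point was tested with DESeq2 on counts scaled by median-of-ratios size factors, with a call at an adjusted p under 0.05 and at least a 2-fold change. miR-10a-5p was not called in either arm. In depleted libraries its normalised read count was 23961 ± 11872 before and 37396 ± 5560 after (SD, n = 3 each), a log2 fold change of 0.57 (SE 0.33) with a DESeq2 adjusted p of 0.226. On this scale the groups overlapped by a small margin, since mouse 1047 before injection (31428) lay just above mouse 1046 after injection (31354). Without the prior on fold changes the 95% interval of the log2 change was -0.08 to 1.37, so that a change of over 2-fold and no change were both within it.

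In undepleted libraries the normalised read count of miR-10a-5p was 850 ± 398 before and 1450 ± 114 after (SD, n = 3 each). The 2 groups did not overlap. The share of all miRNAs that separated was not computed on this scale, and on the percentages 32.4% were higher and 19.7% lower in each library. The log2 fold change was 0.69 (SE 0.30) with a DESeq2 adjusted p of 0.0823 and a p of 0.0206 before adjustment. The interval without the prior was 0.12 to 1.41. By the same rule 10.6% of the 310 miRNAs tested with depletion were called (4.84% higher and 5.81% lower). Without depletion 11.1% of the 108 tested were called (8.33% higher and 2.78% lower), and 0 of the 2 members stands beside these shares. The background itself rests on single mice, since without mouse 1047 the calls were 11 of 285 with depletion and 1 of 395 without.

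miR-10b-5p showed almost the same normalised level at both time points. With depletion it was 88313 ± 15302 before and 84898 ± 6194 after (SD, n = 3 each), a log2 fold change of -0.05 (SE 0.24) with a DESeq2 adjusted p of 0.908 and an interval of -0.56 to 0.44. Without depletion it was 3381 ± 876 before and 3501 ± 87.4 after (SD, n = 3 each), a log2 fold change of 0.05 (SE 0.23) with an adjusted p of 0.908 and an interval of -0.42 to 0.52. Changes of 2-fold in either direction lay outside both intervals.

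The scale decided how firmly the change of miR-10a-5p read. With total mouse miRNA counts as size factors, which is the scale of the percentages, its log2 change was 0.88 (DESeq2 adjusted p = 0.0379) with depletion and 0.85 (DESeq2 adjusted p = 0.0136) without, past the adjusted p but under 2-fold. These values are drawn towards 0 by the prior, and no fit without the prior was run on this scale. The ratio of the geometric means of the percentages was 2.10 with depletion and 2.01 without. The arithmetic means (1.31% and 2.56% with depletion, 1.42% and 2.69% without) were less than 2-fold apart. Which side of 2-fold the change lay on thus depended on the kind of mean. On that scale the median change of the abundant miRNAs (mean of at least 50 counts) in depleted libraries was 0.09 in place of -0.12. Over all alternatives tried the log2 change of miR-10a-5p was 0.19 to 0.88 with depletion (adjusted p 0.0379 to 0.405) and 0.34 to 0.93 without (adjusted p 0.0136 to 0.998). Mouse 1069 carried most of it: without that mouse the log2 change was 0.19 with depletion and 0.34 without, against 0.75 to 0.93 when another mouse was left out.

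**Figure D2:**
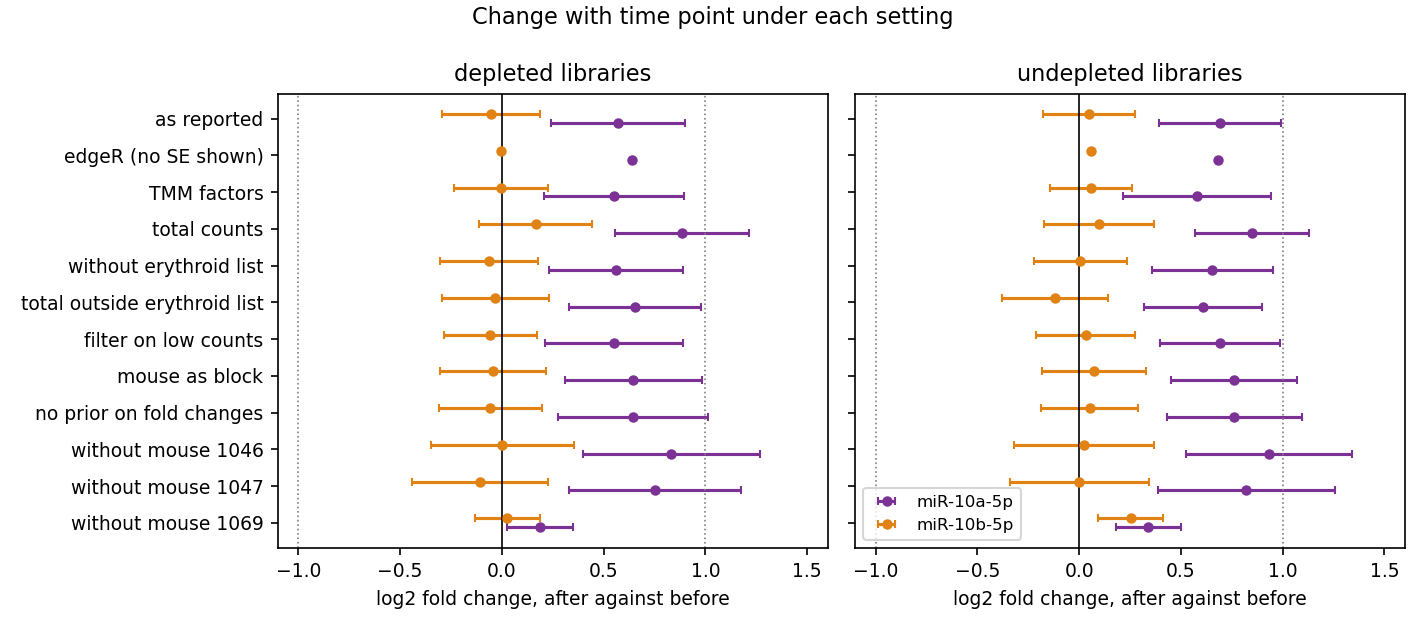
Log2 fold change of miR-10a-5p (purple) and miR-10b-5p (orange), after against before injection, as reported and under each alternative, for depleted and undepleted libraries. Bars are 1 SE (none for edgeR) and dotted lines mark 2-fold; all values of miR-10a-5p are above 0 and under 2-fold, with the lowest without mouse 1069 (0.19 and 0.34), while miR-10b-5p stays between -0.12 and 0.25.

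Markers of blood cells moved with the time point in the same libraries. miRNAs known for their abundance in red blood cells (miR-451a, miR-144-3p, miR-144-5p and miR-16-5p, with counts for 4 of the 5 listed and none for miR-486a-5p) together took 22.7 to 28.5% of mouse miRNA counts before and 11.2 to 16.2% after injection with depletion. Without depletion they took 24.2 to 29.8% and 10.9 to 16.5%. With depletion 4 of these 4 were called lower after injection, beside 5.81% of all miRNAs tested, and without depletion miR-451a and miR-144-3p were, beside 2.78%. With total mouse miRNA counts as size factors only miR-144-3p was called with depletion, since miR-451a (-0.93), miR-144-5p (-0.93) and miR-16-5p (-0.81) fell short of 2-fold on the log2 scale, and the same 2 were called without depletion. As a share of the counts outside these miRNAs, miR-10a-5p took 0.888 to 2.30% before and 2.62 to 3.18% after with depletion, and 1.06 to 2.52% and 2.96 to 3.25% without. Its time points did not overlap on that scale either, for which the share over all miRNAs was not computed. miR-10b-5p took 5.13 to 9.0% and 6.64 to 6.90% of these counts with depletion, with the later range inside the earlier one. Total counts outside these miRNAs were also used as size factors, an alternative chosen after seeing the data. The log2 change of miR-10a-5p was then 0.65 (DESeq2 adjusted p = 0.156) with depletion and 0.61 (DESeq2 adjusted p = 0.164) without.

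The counted markers of other cell types took smaller shares, but these sums may be too low, because some defining markers had no counts in any library and how reads of several loci were counted is not stated. The leukocyte and platelet list took 0.191 to 0.288% before and 0.344 to 0.428% after with depletion, with miR-142a-3p and miR-126a-3p listed in no library. The muscle list took 0.455 to 0.772% and 0.192 to 0.247%, with miR-1a-3p listed in no library. Of this list miR-133a-3p was called lower after injection in both arms, beside 5.81% of all miRNAs tested with depletion and 2.78% without. Its other counted member, miR-206-3p, received no adjusted p with depletion and had no counts without. The liver miRNA miR-122-5p took at most 0.000484% with depletion and 0.00333% without. In serum, fewer cells of a type and less RNA released per cell cannot be told apart. The part of these cell types in the levels of miR-10a-5p and miR-10b-5p was not tested.

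The ratio of the 2 miRNAs needs no size factor, because both counts come from the same library. Before injection, depleted libraries held 2.89 miR-10b-5p counts per miR-10a-5p count in mouse 1046, 2.34 in mouse 1047 and 10.1 in mouse 1069. After injection they held 2.54, 2.17 and 2.17. Undepleted libraries held 2.87, 2.49 and 11.1 before and 2.70, 2.34 and 2.24 after. The ratio was lower after injection in 3 of 3 mice in both arms, by a small step in mice 1046 and 1047 and by a large one in mouse 1069.

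The groups nevertheless overlapped, since the ratio of mouse 1047 before injection was below that of mouse 1046 after injection. The mean log2 ratio was 2.03 ± 1.14 before and 1.19 ± 0.13 after with depletion, and 2.10 ± 1.19 and 1.27 ± 0.14 without (SD, n = 3 each). The differences of -0.84 and -0.83 gave p = 0.2 in the two-sided exact permutation test in each arm (0.2 after adjustment over the 3 ratio tests). The smallest p that 3 against 3 libraries allow is 0.1. Without mouse 1069 the differences were -0.15 and -0.09.

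**Figure D3:**
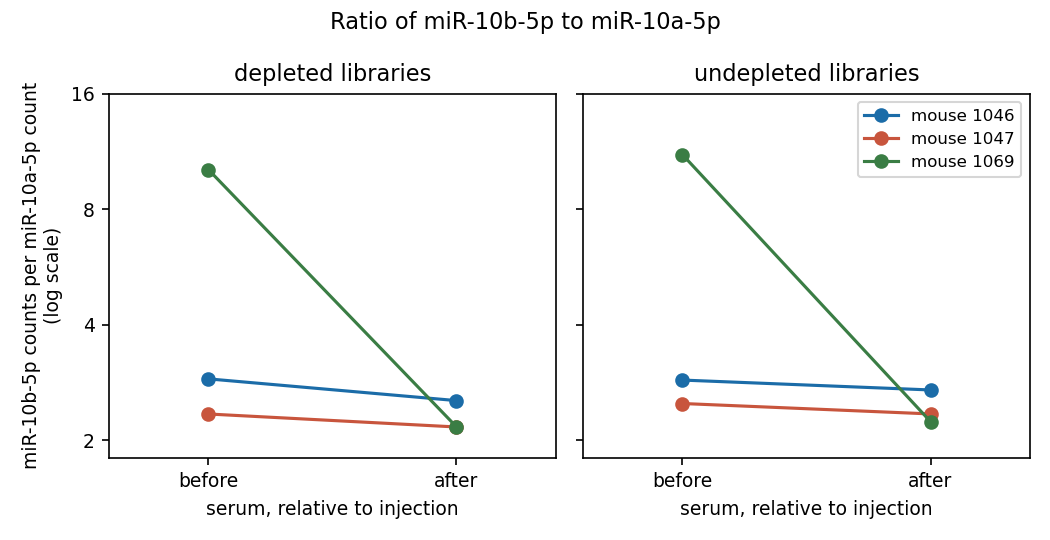
miR-10b-5p counts per miR-10a-5p count (log axis) in serum before and after injection, with depleted libraries on the left and undepleted libraries on the right. Each point is 1 library and lines join the libraries of a mouse; mouse 1069 falls from 10.1 and 11.1 to 2.17 and 2.24, and all other values lie between 2.17 and 2.89.

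The serum drawn from mouse 1069 before injection stood apart in miR-10a-5p, while its miR-10b-5p lay above that of the other two mice but within the range of many other miRNAs. Its normalised count of miR-10a-5p was 0.333 times the geometric mean of the other two mice with depletion and 0.364 times without. These were the 2nd lowest of 213 abundant miRNAs and the lowest of 68. Its miR-10b-5p was 1.30 times the other two with depletion (63rd highest of 213) and 1.5 times without (8th highest of 68). After injection, miR-10a-5p and miR-10b-5p of each mouse in depleted libraries lay within factors of 0.777 to 1.22 of the other two. The 2 libraries of this serum were made from separate aliquots of one RNA, so that they repeat the library preparation and not the blood draw.

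The 3 relatives with the seed ACCCGUA were highest in that serum among the 3 drawn before injection. With depletion and before injection, miR-99a-5p took 0.0404% of mouse miRNA counts in mouse 1069 against 0.0104% and 0.0107% in the other mice. miR-100-5p took 0.0363% against 0.0105% and 0.00780%, and miR-99b-5p took 0.189% against 0.0945% and 0.0786%. miR-10a-5p, at 0.686% against 1.67% and 1.57%, went the other way from these 3 and from miR-10b-5p. None of the 3 relatives was called by time point with depletion (10.6% of all miRNAs tested were) or by depletion (8.36% were). By time point without depletion miR-99b-5p was not called, beside 11.1% of all miRNAs tested. There miR-99a-5p and miR-100-5p had 3 to 8 counts per library and received no adjusted p, so that they could not be called.

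Depletion of the tRNA fragments changed neither miRNA by 2-fold. As a share of mouse miRNA counts, both were lower in the depleted aliquot in 6 of 6 sera, by factors of 0.857 to 0.986 for miR-10a-5p and 0.784 to 0.947 for miR-10b-5p. The largest step of both was in the serum of mouse 1069 before injection. Normalised over all 12 libraries, miR-10a-5p was 6452 ± 2449 without and 5594 ± 2224 with depletion (SD, n = 6 each), a log2 fold change of -0.20 (SE 0.29, DESeq2 adjusted p = 0.790, 95% interval -0.79 to 0.38). For miR-10b-5p the values were 19210 ± 3164 and 15556 ± 1967 (SD, n = 6 each), a log2 fold change of -0.30 (SE 0.13, DESeq2 adjusted p = 0.136, 95% interval -0.57 to -0.04). Neither was called, beside 8.36% of the 383 miRNAs tested (4.96% higher and 3.39% lower with depletion).

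With the serum as a block, which compares the 2 aliquots of each serum directly, the log2 change was -0.21 (SE 0.05, DESeq2 adjusted p = 0.000488) for miR-10a-5p and -0.30 (SE 0.06, DESeq2 adjusted p = 4.53e-06) for miR-10b-5p. Both changes were thus large beside the spread of the paired differences over the 6 sera, but well under 2-fold. They are relative to the other miRNAs: with TMM factors, which put the median change of the abundant miRNAs at 0.26 in place of -0.01, they were 0.05 for miR-10a-5p and -0.02 for miR-10b-5p. Absolute amounts were not measured.

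The change with the time point did not differ detectably between depleted and undepleted libraries. The interaction of time point and depletion was -0.04 on the log2 scale (SE 0.62, 95% interval -1.26 to 1.17) for miR-10a-5p. It was -0.02 (SE 0.29, interval -0.59 to 0.54) for miR-10b-5p, and both had a DESeq2 adjusted p of 0.998. This fit did not pair the aliquots of a serum, so both intervals also hold the spread between sera. With the serum as a block the interaction was -0.045 for miR-10a-5p and -0.043 for miR-10b-5p. The unadjusted DESeq2 p was then 0.681 and 0.721, against 0.946 and 0.943 without the block. Of all 874 miRNAs 0.0% were called by DESeq2 in the fit without the block, with 3 at an unadjusted p under 0.05, and edgeR called 0, with 11.

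The proportions of the pair agreed closely between the 2 aliquots of a serum. In the serum of mouse 1046 before injection, miR-10a-5p made up 25.7% of both miRNAs with depletion (95% Wilson interval 25.4 to 26.0) and 25.8% without (24.8 to 26.9). In that of mouse 1069 it made up 8.98% (8.77 to 9.19) and 8.27% (7.16 to 9.54). The intervals of the 2 aliquots overlapped in both sera, although the undepleted libraries held far fewer counts of the pair (6845 and 2055 against 87787 and 71752). They overlapped in the other sera too, except in that of mouse 1047 after injection, with 31.6% (31.4 to 31.8) against 29.9% (28.6 to 31.2). Over the 6 sera the log2 ratio was lower by 0.08 on average with depletion (a factor of 0.949, SD 0.05, range -0.13 to 0.01), in 5 of 6 sera. The exact sign-flip permutation test over sera gave p = 0.0625 (0.188 adjusted over 3 ratio tests), where the smallest possible p is 0.031.

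**Figure D4:**
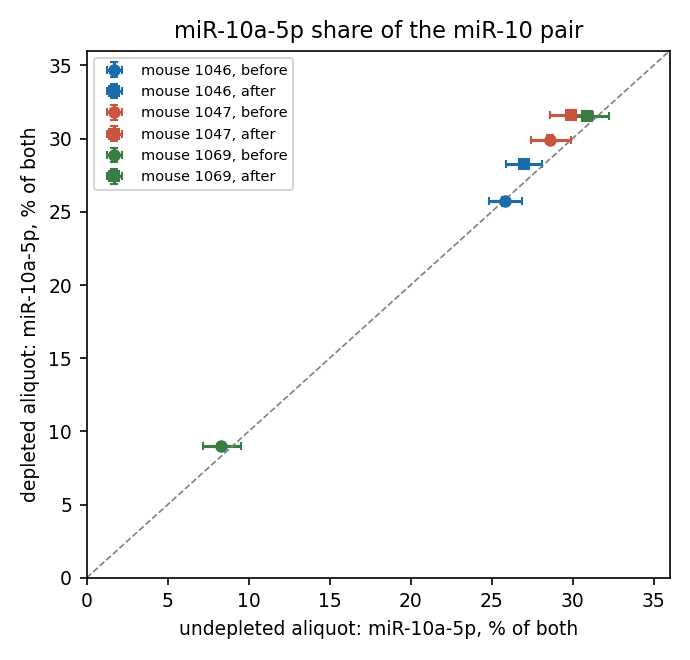
miR-10a-5p as a share (%) of the counts of both miRNAs in the undepleted (horizontal) and depleted (vertical) aliquot of each of the 6 sera, with 95% Wilson intervals. The dashed line marks equal shares; all sera lie close to it, 5 between 25.7 and 31.6% and the serum of mouse 1069 before injection near 9%.

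The other miRNAs of the Hox clusters were scarce in these sera. miR-196a-5p, miR-196b-5p, miR-615-3p and miR-615-5p together took at most 0.0272% of mouse miRNA counts in depleted libraries. By time point with depletion miR-196a-5p, miR-196b-5p and miR-615-3p were not called, beside 10.6% of all miRNAs tested. There miR-615-5p, and without depletion all 4, received no adjusted p at their low counts and could not be called. By depletion miR-196b-5p was called, beside 8.36% of all miRNAs tested. miR-196a-5p and miR-615-3p were not, and miR-615-5p received no adjusted p. miR-196b-5p had 122 to 505 counts in depleted and 0 to 3 counts in undepleted libraries. Its fitted log2 fold change of 2.79 (SE 0.54, DESeq2 adjusted p = 3.93e-06) rests on few counts on the undepleted side.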

How the data were processed

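Per the labels and the study's methods, the authors trimmed adaptors (Cutadapt 1.8.1), removed low-quality reads, mapped with Bowtie 1.1.2 without mismatches and counted reads by overlap with miRBase coordinates on GRCm38/mm10 or GRCh37/hg19. The deposited values are raw read counts per mature miRNA, in separate mouse and human tables for each library; a missing miRNA was taken as 0. How reads of several loci were counted is not stated. The tables give miRBase accessions only. Names were paired with accessions from general knowledge of miRBase, and sequences were matched by name to RefSeq.

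DESeq2 1.42.0 in R 4.3.3 (median-of-ratios factors, prior on fold changes, independent filtering) was fitted to each arm with time point as its term. Depletion was fitted on all 12 libraries with time point as covariate, and the interaction without the prior. p-values were Benjamini-Hochberg adjusted over all miRNAs tested. Ratios were taken as log2 of counts + 0.5 and tested by exact permutation (SciPy 1.17.1). edgeR 4.0.16, other size factors, a filter on low counts (at least 4 counts in 3 libraries), blocks and leaving out each mouse were alternatives. The fits were tested on simulated data.

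Same-numbered libraries come from one mouse, and both aliquots from one serum, by the labels. Deviations from group means had a mean correlation of -0.15 (depleted) and -0.21 (undepleted) between the time points of a mouse, and of 0.774 to 0.836 between aliquots of a serum. The members, lists and tests were chosen with earlier results of these data known. Named miRNAs were both members, their 3′ arms, the lists given here, and for each member the 3 miRNAs most alike by Pearson's r.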

Additional observations from a re-analysis of the deposited data

How the results depend on the processing

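Neither miRNA was called in any of 92 alternatives of the 4 fits. None of these joined total counts with no prior. On that scale the geometric mean ratios of miR-10a-5p were 2.10 and 2.01, while its arithmetic means were less than 2-fold apart. The 2-fold cut-off alone prevented some calls. By time point with total counts, miR-10a-5p had DESeq2 adjusted p of 0.0379 and 0.0136. By depletion with the serum as a block, the DESeq2 adjusted p was 0.000488 (miR-10a-5p) and 4.53e-06 (miR-10b-5p). Without mouse 1069 it was 0.0402 for miR-10b-5p by depletion. Of 159 alternatives over all results 137 were scored as unchanged. For a miRNA or a ratio this meant the same direction and side of the threshold, and for a number of calls a similar number. The ratio by time point could not reach p under 0.05 in any alternative, since the smallest exact permutation p was 0.1. Alternatives with the human counts repeated the same ratios. The direction turned in 14 of the 159 alternatives, none of them a called change. With total mouse miRNA counts as size factors, miR-10b-5p by time point with depletion was 0.17, and the interactions were 0.051 (miR-10a-5p) and 0.072 (miR-10b-5p). With total counts outside the erythroid miRNAs, an alternative chosen after seeing the data, miR-10b-5p by time point without depletion was -0.12 and the interactions were 0.066 and 0.088. Without the erythroid miRNAs in the size factors the interaction of miR-10b-5p was 0.0024. With TMM, miR-10a-5p by depletion was 0.048 in edgeR and 0.047 in DESeq2. Leaving out each mouse gave -0.11 to 0.027 for miR-10b-5p by time point with depletion, and interactions of -0.063 to 0.020 (miR-10a-5p) and -0.14 to 0.063 (miR-10b-5p). The cause was not tested.

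On the adjusted p alone, 52 miRNAs (depleted), 21 (undepleted) and 55 (depletion) were called in place of 33, 12 and 32. Leaving out each mouse gave 11 to 32, 1 to 11 and 19 to 33. Higher and lower calls were 15 and 18 with depletion by time point, against 32 and 5 with total counts, and 19 and 13 by depletion, against 32 and 10 with TMM. With the replicate block 26, 11 and 27 were called, the time point changes of miR-10a-5p were 0.65 and 0.76, and the ratio by time point had an exact p of 0.25 in both arms; the block changed no call of either miRNA. The depth of undepleted libraries limits the 3′ arms and miR-196b-5p, not the 5′ arms. With 3 mice, 1 of which stood apart, the size of the change with time point is poorly known.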

Other observations

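The levels of the 2 miRNAs did not run together over the 6 depleted libraries: Pearson's r of their log2 normalised counts was -0.65, and -0.53 over the 6 undepleted ones. These values describe 6 libraries of 3 mice, among which the serum of mouse 1069 before injection is an extreme point. Most like miR-10a-5p among 212 miRNAs were MIMAT0005443 (r = 0.996), MIMAT0009437 (0.980) and MIMAT0000609 (0.971). Over the undepleted libraries of the same sera their r was -0.00057, 0.897 and 0.962. The first of these had only 2 to 8 counts there and the second 0 to 9, against 4 to 89 for the last. Most like miR-10b-5p were MIMAT0001090 (0.940), MIMAT0000661 (0.934) and MIMAT0000162 (0.891), with 0.343, 0.580 and -0.812 over the undepleted libraries, in which each had at most 7 counts. Each of these was chosen after comparison with all 212, which raises the values in the depleted libraries.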
